A study of Mus musculus with 12 samples.

Results

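The genes described here are 4 galectin genes (Lgals1, Lgals3, Lgals8 and Lgals9), 5 annexin genes (Anxa1, Anxa2, Anxa4, Anxa5 and Anxa6) and S100a10, which encodes a binding partner of annexin A2. They are 10 of the 19938 genes that had a row of their own on the arrays. They were chosen by symbol, and the row with the highest mean over the 12 arrays stood for each gene. Anxa6 was the only member with a second row. The list was drawn up with earlier results of these data known, among them the low Lgals1 signal of the lymphomas. The lymphoma values of Lgals1 are therefore a description, with no test, and counts over the list do not show that it stands apart from other genes. Of the 10 genes, 9 were bright enough to be tested. Anxa1, with a mean log2 signal of 4.27, lay under the limit of 4.78, the 25th percentile of all genes.

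Expression was measured on Affymetrix gene arrays in 3 groups of mice of the strain C57/BL6. The first group is T cell lymphoma cells sorted from the thymus of TCF-1 KO mice aged 12 to 40 weeks (6 arrays). The second is DN3 thymocytes sorted from TCF-1 KO mice aged 8 to 12 weeks (3 arrays), and the third is DN3 thymocytes from wild-type mice of that age (3 arrays). DN3 cells are immature thymocytes without CD4 and CD8 that rearrange the T cell receptor beta gene, and TCF-1 is a transcription factor of the T cell lineage. The lymphomas lack TCF-1 as well, so they differ from wild-type DN3 cells in genotype, disease and age, and from TCF-1 KO DN3 cells in disease and age. The labels do not give the knockout allele, the relation between the mice or the stage from which each lymphoma arose. Arrays of a group are labelled as biological replicates.

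Galectins are lectins that bind beta-galactoside sugars on glycoproteins. They leave the cell without a signal peptide and can cross-link surface receptors, and galectin-1 is known for inducing death of thymocytes and activated T cells in culture. Annexins bind acidic phospholipids, above all phosphatidylserine, when calcium is present, and act in membrane organisation, vesicle transport and membrane repair. S100A10 is a calcium-insensitive member of the S100 family whose dimer joins a pair of annexin A2 molecules into a complex at the plasma membrane.

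Values are the deposited log2 signals, and a difference of 1 log2 unit is a doubling. Array medians lay between 5.30 and 5.39. All 12 arrays had high Il2ra, the CD25 gene that marks DN3 cells, at 9.89 to 10.62 in lymphomas, 10.37 to 10.88 in TCF-1 KO DN3 cells and 10.71 to 10.77 in wild-type DN3 cells, while Cd4 stayed between 4.80 and 5.26. The arrays fell into an unlabelled smaller batch (replicate 1 of both DN3 groups and lymphomas 1 and 2) and a larger batch of 8 arrays, each with all 3 groups. TCF-1 KO DN3 replicate 3 and lymphomas 1, 2 and 6 had low Xist, at 4.13 to 4.40, against 10.10 to 10.58 on the other arrays, so sex was not balanced between groups. The gene deleted in the KO mice is not analysed here.

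The sequences just upstream of Anxa2 and Anxa5 are shown because these are the members with a called change, in opposite directions, that the RefSeq promoter table (GRCm38.p6) holds. The table matched 7 of the 10 members, all but Lgals1, Anxa6 and S100a10. Each run is the 250 bases before the annotated start, read 5′ to 3′ on the gene's strand, in lower case with any TATAAA (a core promoter element) in capitals.
Anxa2, chr9:69453433-69453682, plus strand: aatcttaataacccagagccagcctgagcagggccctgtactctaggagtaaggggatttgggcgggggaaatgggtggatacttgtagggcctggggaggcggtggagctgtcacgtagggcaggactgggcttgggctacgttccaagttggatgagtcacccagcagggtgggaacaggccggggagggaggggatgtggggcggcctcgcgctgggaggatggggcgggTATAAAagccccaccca
Anxa5, chr3:36475888-36476137, minus strand: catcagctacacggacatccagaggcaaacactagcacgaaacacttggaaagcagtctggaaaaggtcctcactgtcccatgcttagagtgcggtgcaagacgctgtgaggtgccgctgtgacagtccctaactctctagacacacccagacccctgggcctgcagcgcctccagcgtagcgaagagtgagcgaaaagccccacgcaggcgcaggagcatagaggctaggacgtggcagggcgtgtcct
The Anxa2 run held TATAAA starting 17 bases before the annotated start, and the Anxa5 run held none. Of the members in the table, 2 held it on either strand, Anxa2 and the untested Anxa1, there 32 bases before the start. On the gene's strand, 7.6% of all 32851 promoters of this length held that motif, and on either strand 12.4%. The core motif of TCF and LEF factors was searched as CTTTGAA or CTTTGAT, and also as CTTTGTA or CTTTGTT, on both strands. It was in neither run. It was in 1 of the 8 promoters of the members, an alternative start of Anxa4, where it read TTCAAAG on the gene's strand, and in 14.8% of all promoters.

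In the lymphomas the genes of annexin A2 and of its partner S100A10 were both several-fold lower than in DN3 cells of either genotype, and so was the galectin-1 gene. The annexin A5 gene was called higher against wild-type DN3 cells, and against TCF-1 KO DN3 cells it was not called. The other 6 of the 10 genes were called in neither lymphoma comparison or, for Anxa1, not tested, and each differed by less than 0.5 log2 units there. The 9 tested members include Lgals1, whose fall was known when the list was drawn up. Their median change in lymphomas against wild-type DN3 cells was -0.19, with 3 above 0 and 6 below. The median of all 14953 tested genes was -0.01. Apart from Lgals1, 3 of 8 members were called at an adjusted p under 0.05 (limma), 1 higher and 2 lower, and 5 were not. Over all tested genes 5.82% were called, 2.96% higher and 2.86% lower. Both lymphoma comparisons share the 6 lymphoma arrays, and both comparisons with wild-type DN3 cells share those 3 arrays.

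**Figure D1:**
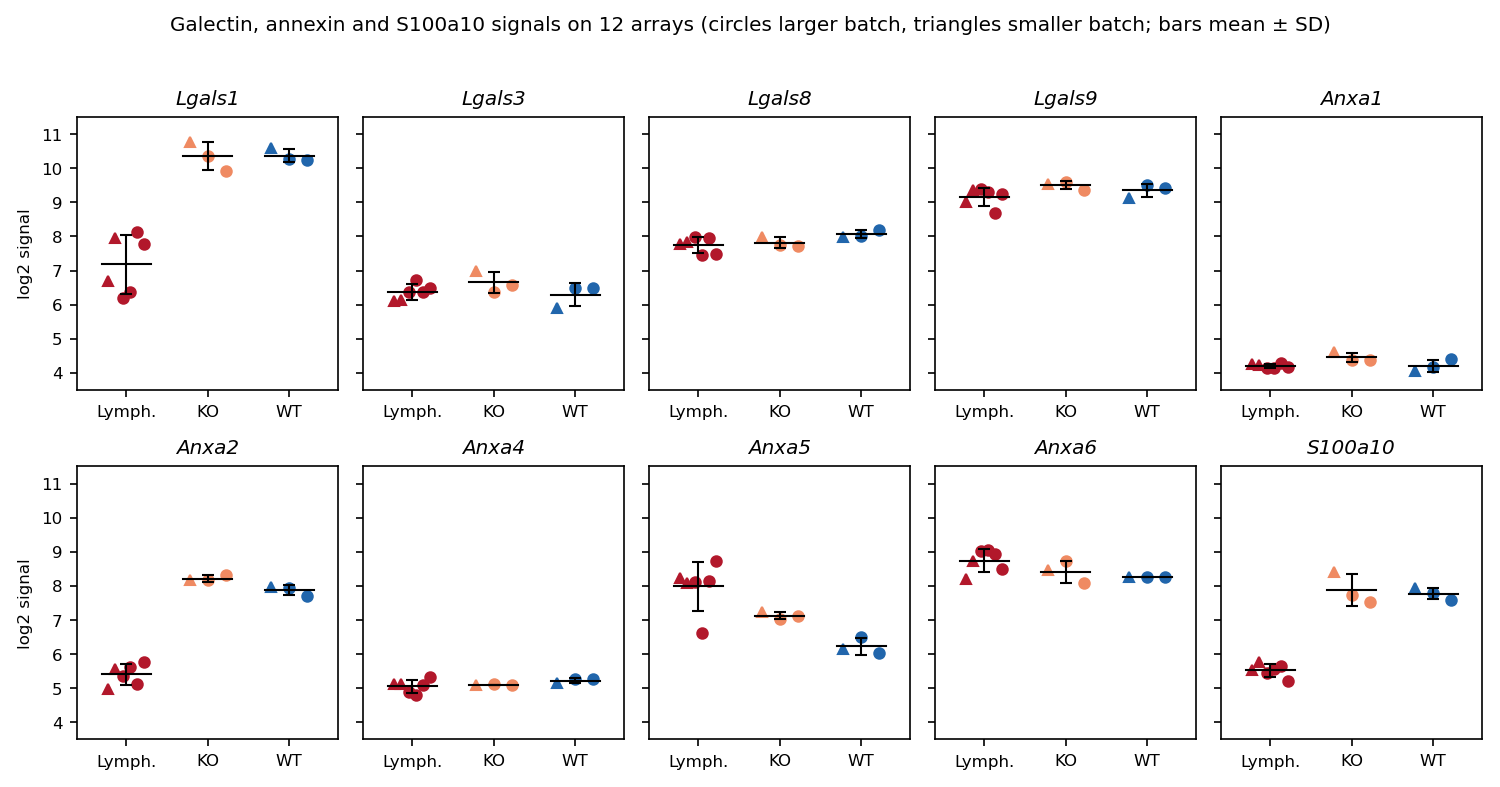
Log2 signal of the 10 genes on each of the 12 arrays, for lymphomas, TCF-1 KO DN3 cells and wild-type (WT) DN3 cells. Points are arrays (triangles for the smaller batch), and horizontal lines with bars give mean ± SD (n = 6, 3 and 3). Lgals1, Anxa2 and S100a10 lie lower on all 6 lymphoma arrays than on any DN3 array, and Anxa5 lies higher on all 6 than on any wild-type array.

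Lgals1 encodes galectin-1. Its log2 signals in lymphomas 1 to 6 were 6.68, 7.94, 6.18, 6.37, 8.14 and 7.79, against 10.77, 10.36 and 9.93 in TCF-1 KO DN3 cells and 10.60, 10.28 and 10.23 in wild-type DN3 cells. All lymphomas lay below all DN3 arrays, and lymphomas 1, 3 and 4 were more than 1 log2 unit below lymphomas 2, 5 and 6. The lymphoma mean was 7.18 ± 0.87 (SD, n = 6), 9.01-fold below the 10.36 ± 0.42 (SD, n = 3) of TCF-1 KO DN3 cells and 9.09-fold below the 10.37 ± 0.20 (SD, n = 3) of wild-type DN3 cells. Both lower and higher lymphomas occurred in each batch. Within the smaller batch lymphomas differed from wild-type DN3 cells by -3.29 and within the larger batch by -3.13. In bulk RNA of sorted cells, fewer cells that express a gene and less of its RNA per cell cannot be told apart, here and for the genes that follow.

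Between the DN3 groups no difference in Lgals1 was detected. Its change was -0.01 in TCF-1 KO against wild-type DN3 cells (limma adjusted p = 0.983), with a 95% interval from -0.44 to 0.42. Its direction turned to 0.20 without TCF-1 KO DN3 replicate 3, the array with low Xist, and to 0.10 without wild-type replicate 1.

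Anxa2 encodes annexin A2, which links membranes to actin and serves in exocytosis and plasminogen binding. Its signals in lymphomas 1 to 6 were 4.98, 5.57, 5.36, 5.62, 5.13 and 5.78, against 8.16, 8.16 and 8.33 in TCF-1 KO DN3 cells and 7.97, 7.94 and 7.71 in wild-type DN3 cells. No lymphoma reached any DN3 array, and the 6 lymphomas spanned 0.80 log2 units. Anxa2 fell by 2.47 (SE 0.16, limma adjusted p = 2.74e-06) in lymphomas against wild-type DN3 cells, a 5.53-fold difference, lower in 6 of 6 lymphomas. It fell by 2.81 (SE 0.16, limma adjusted p = 2.4e-06) against TCF-1 KO DN3 cells, a 7.01-fold difference. The lymphoma signals were near the array medians, where fold differences can be understated.

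In TCF-1 KO DN3 cells Anxa2 was above all wild-type arrays on 3 of 3 arrays, by 0.34, but was not called (limma adjusted p = 0.197). Over all tested genes 22% had TCF-1 KO and wild-type arrays that did not overlap.

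S100a10 encodes the annexin A2 partner S100A10, also called p11. Its signals in lymphomas 1 to 6 were 5.54, 5.78, 5.45, 5.55, 5.64 and 5.20, against 8.41, 7.72 and 7.52 in TCF-1 KO DN3 cells and 7.95, 7.78 and 7.60 in wild-type DN3 cells. All lymphomas lay below all DN3 arrays and spanned 0.58 log2 units. S100a10 fell by 2.25 (SE 0.12, limma adjusted p = 6.02e-07) in lymphomas against wild-type DN3 cells, a 4.75-fold difference, and fell by 2.36 (SE 0.18, limma adjusted p = 1.81e-05) against TCF-1 KO DN3 cells, a 5.12-fold difference. Between TCF-1 KO and wild-type DN3 cells it differed by 0.11 (limma adjusted p = 0.817), with a 95% interval from -0.34 to 0.56, and by -0.15 without TCF-1 KO DN3 replicate 1.

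The calls of Anxa2 and S100a10 in both lymphoma comparisons held with each array left out in turn. The highest adjusted p was 8.1e-05 for Anxa2 and 0.000221 for S100a10. Within the smaller and the larger batch Anxa2 differed by -2.69 and -2.35 between lymphomas and wild-type DN3 cells, and S100a10 by -2.29 and -2.23.

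Anxa5 encodes annexin A5, whose labelled protein is the common stain for phosphatidylserine on dying cells. Its signals in lymphomas 1 to 6 were 8.23, 8.09, 8.10, 6.62, 8.15 and 8.74, against 7.23, 7.03 and 7.13 in TCF-1 KO DN3 cells and 6.15, 6.51 and 6.03 in wild-type DN3 cells. Each lymphoma and each TCF-1 KO DN3 array lay above all wild-type arrays. Lymphoma 4 lay below all TCF-1 KO DN3 arrays, and the other 5 lay above them.

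Anxa5 rose in TCF-1 KO DN3 cells, which averaged 7.13 ± 0.10 (SD, n = 3) against 6.23 ± 0.25 (SD, n = 3) in wild-type DN3 cells, a change of 0.90 (SE 0.14, limma adjusted p = 0.0105). It was the 1 member called among 9 in that comparison, where 1.99% of all genes were called, 0.568% higher and 1.42% lower. The call was lost without TCF-1 KO DN3 replicate 3 (adjusted p = 0.0519), with a change of the same size, and in 1 fit to all 12 arrays (adjusted p = 0.223). That replicate is the only array of the DN3 groups with low Xist, so a fit with sex as a term is the same fit as one without it. Pairing the DN3 arrays by replicate number gave an adjusted p of 0.00124 and called the same member alone, where 9.23% of all genes were called.

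In the lymphomas Anxa5 averaged 7.99 ± 0.71 (SD, n = 6), a rise of 1.76 over wild-type DN3 cells (SE 0.35, limma adjusted p = 0.00919), or 3.38-fold. That call was lost without wild-type replicate 1 (adjusted p = 0.0502) or replicate 3 (adjusted p = 0.0593). The difference from TCF-1 KO DN3 cells was 0.86 (limma adjusted p = 0.143), with a 95% interval from 0.12 to 1.59, and was not called. Lymphoma 4 decided that: without it the difference was 1.13 (adjusted p = 0.00152). Within the smaller and the larger batch lymphomas differed from wild-type DN3 cells by 2.01 and 1.63.

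Among the genes that did not pass in any comparison, Anxa6 showed the largest difference between lymphomas and wild-type DN3 cells. It encodes annexin A6, an annexin with a doubled core that has been tied to membrane and calcium signalling. Its signals in lymphomas 1 to 6 were 8.19, 8.73, 9.03, 9.05, 8.94 and 8.51, against 8.46, 8.72 and 8.08 in TCF-1 KO DN3 cells and 8.25, 8.27 and 8.26 in wild-type DN3 cells. Lymphomas 2 to 6 lay above all wild-type arrays and lymphoma 1 below them. The difference of 0.48 had a 95% interval from 0.11 to 0.86 (limma adjusted p = 0.166). It was 0.59 without lymphoma 1 (limma adjusted p = 0.0154) and 0.75 with sex as a term (limma adjusted p = 0.00345). All wild-type arrays had high Xist, so with that term the change rests on the lymphomas with high Xist, 3, 4 and 5. The second Anxa6 row averaged 6.34 ± 0.24 (SD, n = 6) in lymphomas, 6.40 ± 0.32 (SD, n = 3) in TCF-1 KO DN3 cells and 6.30 ± 0.31 (SD, n = 3) in wild-type DN3 cells, so that row showed no such difference, and the mean of both rows gave 0.26.

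Lgals9 encodes galectin-9, a tandem-repeat galectin known as a ligand of TIM-3. It lay between 8.70 and 9.38 (median 9.28) in lymphomas, between 9.37 and 9.59 in TCF-1 KO DN3 cells and between 9.13 and 9.50 in wild-type DN3 cells. The groups overlapped. The lymphomas differed from TCF-1 KO DN3 cells by -0.33 (limma adjusted p = 0.186, 95% interval from -0.65 to -0.02) and from wild-type DN3 cells by -0.19 (limma adjusted p = 0.694, 95% interval from -0.52 to 0.15). Between TCF-1 KO and wild-type DN3 cells it differed by 0.15 (limma adjusted p = 0.608).

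Lgals8 encodes galectin-8, which marks damaged vesicles for autophagy. It lay between 7.46 and 7.99 (median 7.80) in lymphomas, between 7.72 and 7.99 in TCF-1 KO DN3 cells and between 7.99 and 8.19 in wild-type DN3 cells. In 5 of 6 lymphomas it was below all wild-type arrays, and the difference of -0.32 was not called (limma adjusted p = 0.243, 95% interval from -0.60 to -0.04). TCF-1 KO DN3 cells differed from wild-type by -0.24 (limma adjusted p = 0.353).

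Lgals3 encodes galectin-3, the chimeric galectin also known as Mac-2 and abundant in macrophages. It lay between 6.10 and 6.71 (median 6.37) in lymphomas, at 7.0, 6.38 and 6.58 in TCF-1 KO DN3 cells and at 5.90, 6.48 and 6.50 in wild-type DN3 cells. The TCF-1 KO DN3 cells differed from wild-type by 0.36 (limma adjusted p = 0.387). That difference was 1.10 in the smaller batch and -0.01 in the larger. The lymphomas differed from wild-type DN3 cells by 0.07 (limma adjusted p = 0.941, 95% interval from -0.28 to 0.42).

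Anxa4 and Anxa1 were dim on all arrays. Anxa4, the gene of an annexin common in epithelia, lay between 4.80 and 5.33 in lymphomas, between 5.09 and 5.11 in TCF-1 KO DN3 cells and between 5.14 and 5.27 in wild-type DN3 cells. Its differences were -0.17, -0.04 and -0.13 in lymphomas against wild-type, lymphomas against TCF-1 KO and TCF-1 KO against wild-type DN3 cells, and none was called (limma adjusted p = 0.589, 0.87 and 0.58). At that signal a change is hard to see. Anxa1, the gene of the glucocorticoid-induced annexin A1, lay between 4.13 and 4.29 in lymphomas, between 4.37 and 4.61 in TCF-1 KO DN3 cells and between 4.05 and 4.40 in wild-type DN3 cells. With no filter on dim genes it was not called in any comparison (limma adjusted p from 0.112 to 0.999).

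**Figure D2:**
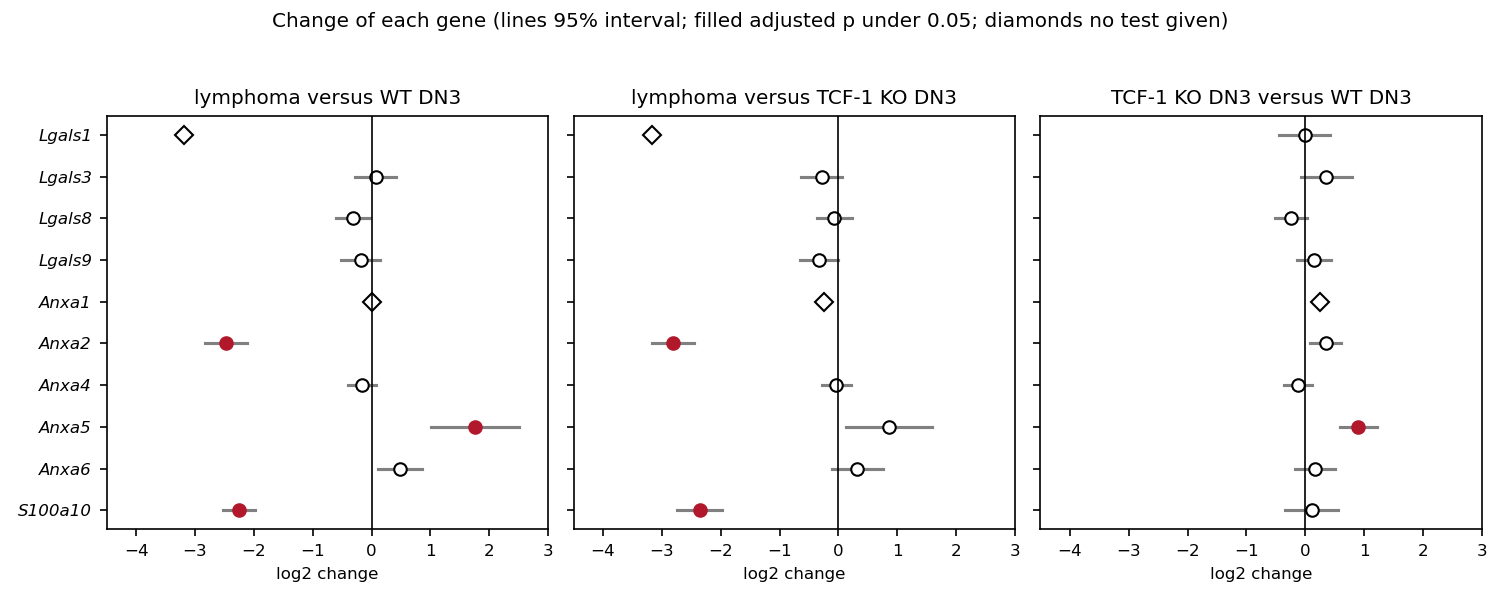
Log2 change of each gene in the 3 comparisons, with the 95% interval from limma as a line. Filled points were called at an adjusted p under 0.05, and diamonds were given no test. Anxa2 and S100a10 were called lower in both lymphoma comparisons, and Anxa5 higher against wild-type DN3 cells in lymphomas and in TCF-1 KO DN3 cells.

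Against TCF-1 KO DN3 cells, 2 of 8 members apart from Lgals1 were called, both lower in lymphomas, where 6.62% of all genes were called, 4.5% higher and 2.12% lower. The median change of the 9 tested members, with Lgals1 and its already known fall included, was -0.29, against -0.03 over all genes. In TCF-1 KO against wild-type DN3 cells it was 0.15, against 0.03 over all genes, with 6 members above 0 and 3 below. Apart from Lgals1, the groups did not overlap for 3 of the 8 tested members in lymphomas against wild-type DN3 cells (10.3% of all tested genes) and for 2 of 8 against TCF-1 KO DN3 cells (13.6%). Between the DN3 groups they did not overlap for 3 of 9 (22%), Anxa2, Anxa4 and Anxa5. The untested Anxa1 did not overlap between lymphomas and TCF-1 KO DN3 cells either.

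The SD over the 6 lymphomas was 0.87 for Lgals1 and 0.71 for Anxa5, against 0.31 for Anxa2 and 0.19 for S100a10, whose lymphoma signals were near the array medians, where differences are understated. Lgals1 spread over 1.96 log2 units, with lymphomas 1, 3 and 4 low and lymphomas 2, 5 and 6 high. The range of 2.12 in Anxa5 came mostly from lymphoma 4. Lymphoma 4 was not apart in S100a10 or Anxa2, which stood at 5.55 and 5.62 there.

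**Figure D3:**
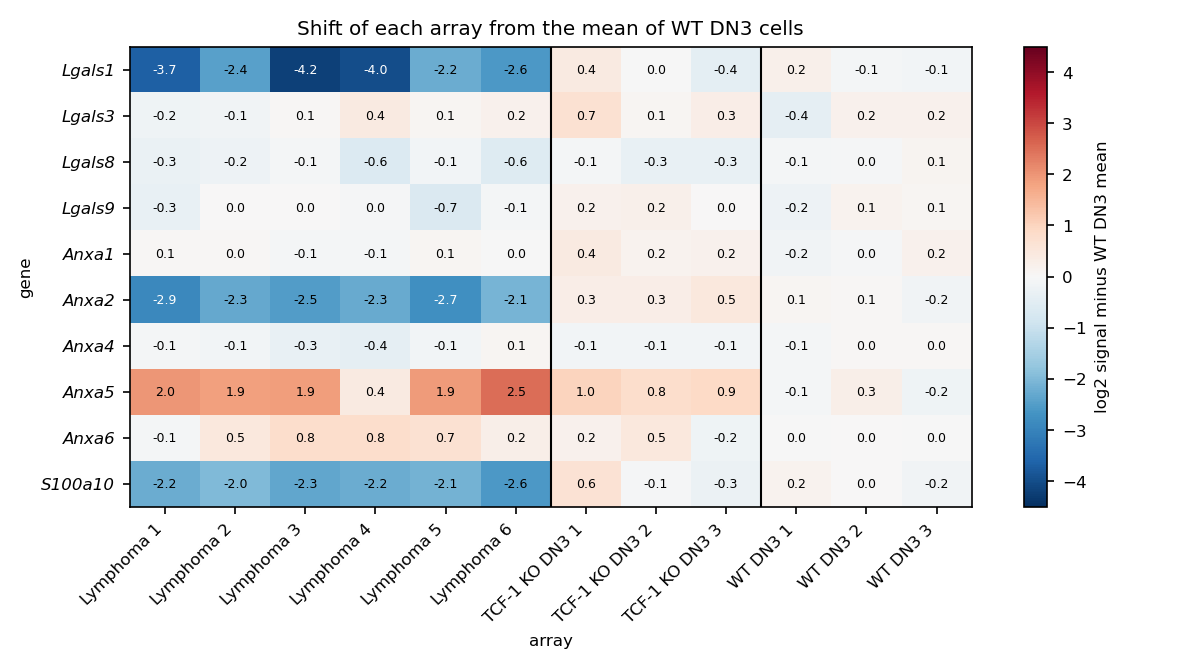
Log2 signal of each array minus the mean of the 3 wild-type DN3 arrays, for the 10 genes (rows) and 12 arrays (columns). Blue is lower and red is higher. All 6 lymphomas are blue in Lgals1, Anxa2 and S100a10, and lymphoma 4 is the lymphoma with the smallest shift in Anxa5.

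Likeness between genes was measured over the 12 arrays as the root mean square difference of signals after each gene's own mean was taken off, for the 4 members that spanned at least 1.5 log2 units, each against 14100 other genes. It is a description: the arrays share 3 groups, and any genes that fall in all lymphomas come out alike. The gene most like Lgals1 was Anxa2 (0.68 log2 units), followed by Dgkeos (0.69), S100a10 (0.71), Ly6d (0.73) and Myl10 (0.74). In the other direction Lgals1 was at rank 19 among the genes most like Anxa2 and at rank 50 among those most like S100a10. The genes most like Anxa2 were Ly6d (0.35), a GPI-anchored surface marker of lymphoid progenitors, S100a10 (0.40), Pld4 (0.43), Gbp8 (0.45) and Ctla4 (0.45). S100a10 was most like Ly6d (0.21), Pld4 (0.28), Samd9l (0.34), Anxa2 (0.40) and Abcg3 (0.40). Anxa5 was most like Phlda1 (0.41), Snrk (0.41), Cenpv (0.43), Fjx1 (0.45) and Dusp10 (0.46), which were also lowest in wild-type DN3 cells and highest in lymphomas.

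The genes next to the changed members on their chromosomes were compared, taking 3 tested genes on each side in the order of GRCm38.p6. Around Lgals1 on chromosome 15 the 6 neighbours changed by between -0.18 (Pdxp) and -0.00 (Nol12) in lymphomas against wild-type DN3 cells. Around Anxa2 on chromosome 9 they changed by between -0.11 (Ice2) and 0.44 (Vps13c), and around Anxa5 on chromosome 3 by between -0.02 (Qrfpr) and 0.13 (Mccc1os). None of these 18 was called in that comparison, and 1 neighbour of S100a10 was. Against TCF-1 KO DN3 cells Vps13c (0.76, limma adjusted p = 0.0214) and Ice2 (0.64, limma adjusted p = 0.0489) beside Anxa2 were called higher in lymphomas. Ice2 was also called lower in TCF-1 KO than in wild-type DN3 cells (-0.75, limma adjusted p = 0.0111), while lymphomas and wild-type DN3 cells differed by the -0.11 given above. The called neighbour of S100a10 on chromosome 3 is S100a11, the gene of the S100 protein that binds annexin A1, and it fell with S100a10.

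S100a11 signals in lymphomas 1 to 6 were 8.75, 8.92, 8.15, 8.68, 8.29 and 8.18, against 10.51, 9.62 and 9.51 in TCF-1 KO DN3 cells and 10.16, 9.63 and 9.49 in wild-type DN3 cells. All lymphomas lay below all DN3 arrays. It fell by 1.27 (SE 0.20, limma adjusted p = 0.00175) against wild-type and by 1.39 (SE 0.23, limma adjusted p = 0.0046) against TCF-1 KO DN3 cells. Of the other 10 tested S100 genes, none was called in any of the 3 comparisons. S100a4 stood at 6.19 ± 0.37 (SD, n = 6) in lymphomas, 6.25 ± 0.26 (SD, n = 3) in TCF-1 KO DN3 cells and 5.69 ± 0.09 (SD, n = 3) in wild-type DN3 cells. The S100 list had 11 tested members, and its median change in lymphomas against wild-type DN3 cells was 0.00. In lymphomas against TCF-1 KO DN3 cells the median was -0.15, with 2 above 0, where that of all genes was -0.03. In TCF-1 KO against wild-type DN3 cells it was 0.21, where that of all genes was 0.03. There 10 lay above 0 and 3 had an unadjusted p under 0.05 (limma).

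The rest of the galectin and annexin families had 13 measured genes, of which 7 were bright enough to be tested. Lgalsl, a galectin-related gene whose protein lacks sugar binding, rose in lymphomas. It lay between 6.52 and 7.01 (median 6.83) in lymphomas, between 5.50 and 5.71 in TCF-1 KO DN3 cells and between 5.08 and 5.63 in wild-type DN3 cells, with no overlap. It was 1.42 above wild-type (SE 0.13, limma adjusted p = 5.34e-05) and 1.20 above TCF-1 KO DN3 cells (SE 0.11, limma adjusted p = 9.53e-05), and each call held with any array left out.

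Lgals7, a galectin of stratified epithelia, also rose in lymphomas against wild-type DN3 cells, by 1.32 (SE 0.34, limma adjusted p = 0.0397). The call was lost in 6 of the 9 fits that left out an array, with an adjusted p of up to 0.165 without wild-type replicate 3. Lymphomas 1 and 2, of the smaller batch, had its highest signals, 7.87 and 7.57, and the other 4 lay between 6.02 and 6.79. The other 5 tested family members (Lgals4, Lgals12, Lgals3bp, Anxa7 and Anxa11) were not called in any comparison. The list had a median change of 0.13 in lymphomas against wild-type and 0.13 in TCF-1 KO against wild-type DN3 cells.

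Of 11 tested annexin partners and membrane repair genes, Myof, the myoferlin gene, fell in lymphomas by 0.44 against wild-type (SE 0.08, limma adjusted p = 0.006) and by 0.42 against TCF-1 KO DN3 cells (limma adjusted p = 0.0116), and 10 were not called in either. None was called in TCF-1 KO against wild-type DN3 cells. Ahnak, whose large protein binds the annexin A2 complex, stood at 5.28 ± 0.36 (SD, n = 6) in lymphomas, 5.11 ± 0.24 (SD, n = 3) in TCF-1 KO DN3 cells and 4.85 ± 0.13 (SD, n = 3) in wild-type DN3 cells and was not called.

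Galectins act through glycans, so enzymes that build or cap galectin ligands were listed too. Of 17 tested, 3 rose, 3 fell and 11 were not called in lymphomas against wild-type DN3 cells. Over all tested genes 5.82% were called there. The list was chosen with earlier results known, so its counts are a description. St6gal1, whose product adds the alpha-2,6 sialic acid cap that blocks galectin-1 binding, lay between 6.14 and 7.38 (median 6.88) in lymphomas, between 5.34 and 5.58 in TCF-1 KO DN3 cells and between 4.93 and 5.30 in wild-type DN3 cells. It rose by 1.64 (SE 0.26, limma adjusted p = 0.00172) against wild-type and by 1.32 (SE 0.25, limma adjusted p = 0.0093) against TCF-1 KO DN3 cells, where the call was lost without TCF-1 KO DN3 replicate 3 (adjusted p = 0.0578).

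The branching enzyme gene Mgat5 rose by 0.59 (limma adjusted p = 0.025) and the mannosidase gene Man2a1 by 1.04 (limma adjusted p = 0.041) against wild-type DN3 cells, and both calls were lost with some arrays left out (adjusted p up to 0.135 and 0.152). The branching enzyme gene Mgat4a fell by 1.60 (limma adjusted p = 5.58e-05) in the same comparison. In TCF-1 KO DN3 cells it fell by 0.93 (limma adjusted p = 0.0419), a call that held in 1 of the 6 fits that left out an array. B3gnt2, which extends poly-lactosamine chains, fell by 0.79 in lymphomas against wild-type DN3 cells (limma adjusted p = 0.000444), and Mgat1 fell by 0.50 (limma adjusted p = 0.0206), a call lost without wild-type replicate 3 (adjusted p = 0.119). In TCF-1 KO DN3 cells B4galt1, a galactosyltransferase gene, rose by 0.75 (limma adjusted p = 0.0419), also held in 1 of those 6 fits, and 15 of 17 were not called. In lymphomas against TCF-1 KO DN3 cells 3 of the 17 rose and 1 fell. Over all tested genes 1.99% were called in TCF-1 KO against wild-type DN3 cells and 6.62% in lymphomas against TCF-1 KO DN3 cells.

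T cell glycoproteins listed as candidate galectin ligands had 13 tested members. In lymphomas against wild-type DN3 cells the adhesion receptor gene Cd2 rose by 4.12, the integrin gene Itga4 fell by 3.58, the inhibitory receptor gene Ctla4 fell by 1.78, Cd47 fell by 0.84, and 9 were not called. Against TCF-1 KO DN3 cells 3 rose (Cd3e, Itgb1 and Lamp2), Itga4, Ctla4 and Cd47 fell and 7 were not called. Over all tested genes 5.82% were called against wild-type and 6.62% against TCF-1 KO DN3 cells. The call of Cd47 was lost without wild-type replicate 1 (adjusted p = 0.0784). Ptprc, the CD45 gene, stood at 10.58 ± 0.10 (SD, n = 6) in lymphomas, 10.35 ± 0.12 (SD, n = 3) in TCF-1 KO DN3 cells and 10.45 ± 0.05 (SD, n = 3) in wild-type DN3 cells. Spn, the CD43 gene, stood at 6.91 ± 0.11 (SD, n = 6), 6.90 ± 0.09 (SD, n = 3) and 6.93 ± 0.07 (SD, n = 3) in the same order, and neither was called. In TCF-1 KO against wild-type DN3 cells, where 1.99% of all tested genes were called, Cd2 rose by 3.94, Itga4 fell by 0.73 and 11 were not called. That call of Itga4 held in 3 of the 6 fits that left out an array, with an adjusted p of up to 0.156.

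**Figure D4:**
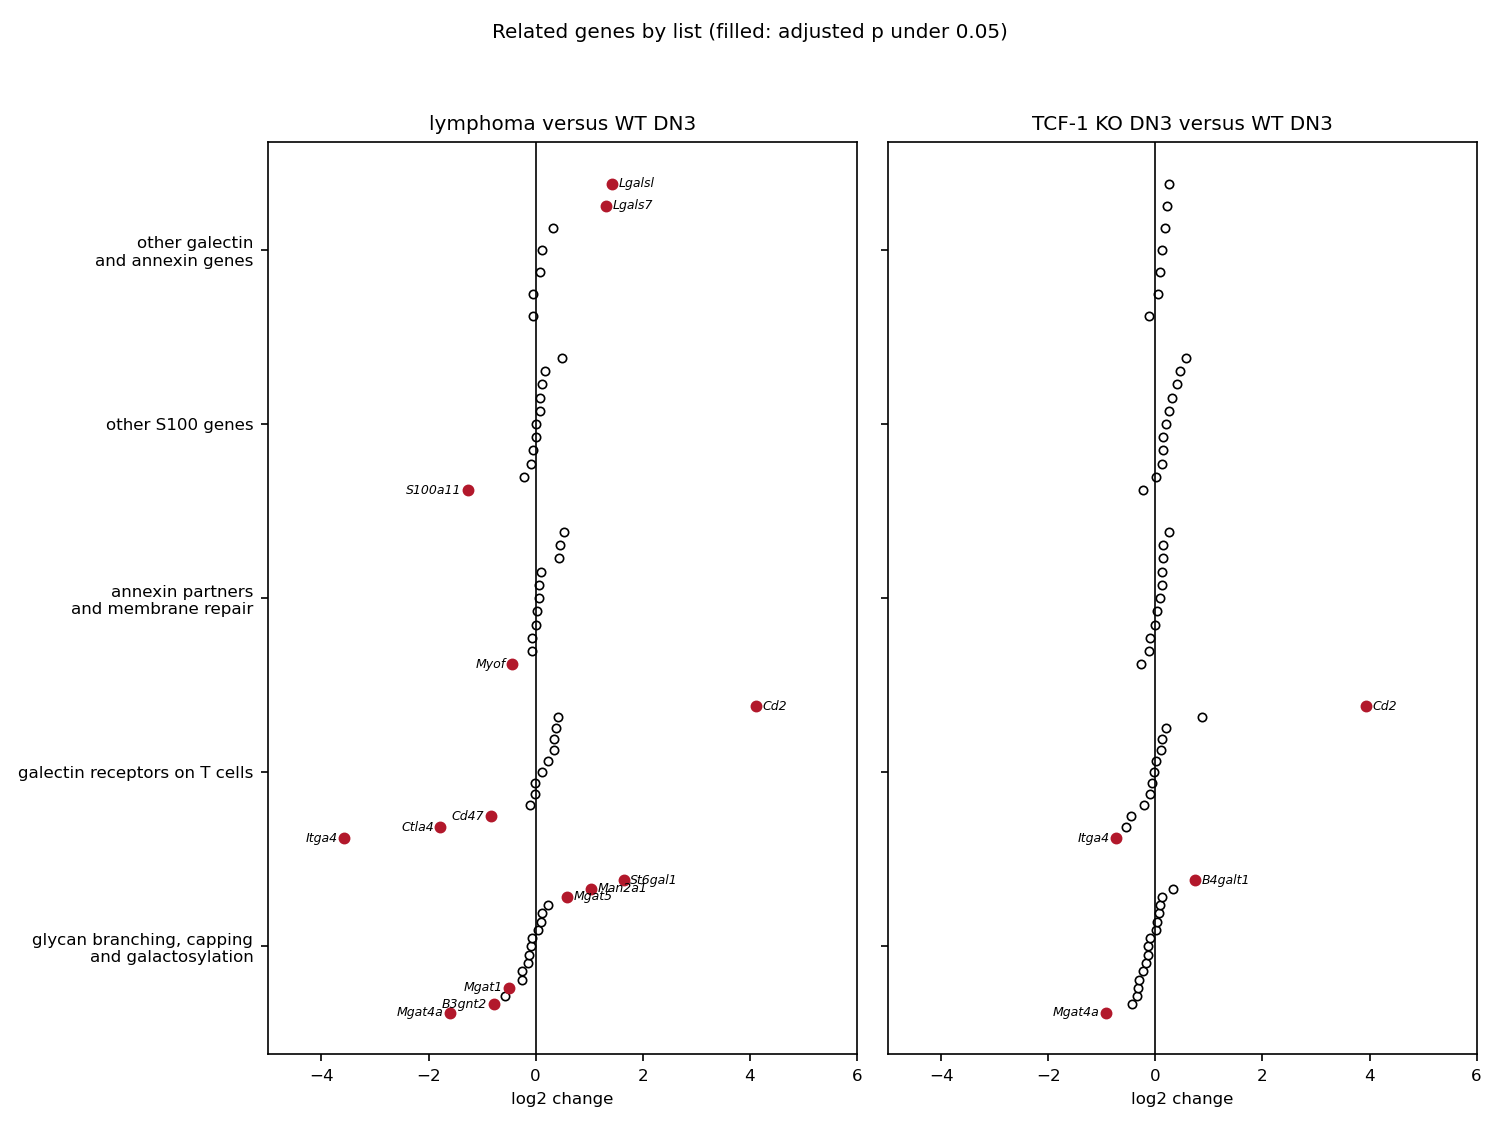
Log2 changes of the tested genes of 5 related lists in lymphomas (left) and TCF-1 KO DN3 cells (right), each against wild-type DN3 cells. Each point is a gene, and filled, named points were called at an adjusted p under 0.05. S100a11 is the 1 filled point among the other S100 genes, and Lgalsl and Lgals7 those among the other galectins and annexins.

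Markers of other cells that could carry galectins and annexins were read on the same arrays. Of 12 measured myeloid markers none of the 10 tested was called in lymphomas against wild-type DN3 cells, and none of them had an unadjusted p under 0.05 (limma). Their summed linear signal was 661 to 797 in lymphomas, 658 to 708 in TCF-1 KO DN3 cells and 672 to 684 in wild-type DN3 cells. Cst3, by far the brightest of these markers, averaged 8.19, 8.18 and 8.17 log2 in the same order. It makes up much of each sum, so the sums say little about the dimmer markers. The macrophage gene Adgre1 stood at 4.25 to 4.38, 4.31 to 4.34 and 4.18 to 4.27 in the same order, below the limit for testing. In lymphomas against TCF-1 KO DN3 cells 1 of the 10 was called, H2-Ab1, an MHC class II gene, higher by 0.72 (limma adjusted p = 0.0261), a call held in 6 of the 9 fits that left out an array. In TCF-1 KO against wild-type DN3 cells none was called (1 had an unadjusted p under 0.05).

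In lymphomas against wild-type DN3 cells 1 of 11 thymic stroma markers fell, Epcam by 1.05 (limma adjusted p = 0.000522). The calls in the rest of this paragraph are of the same comparison, in which 5.82% of all tested genes were called. The summed signal of the stroma markers was 566 to 749 in lymphomas, 607 to 712 in TCF-1 KO DN3 cells and 619 to 672 in wild-type DN3 cells. Of 4 tested B cell markers Cd79b (-0.95) and Vpreb1 (-1.46) fell. Vpreb1 varied widely in wild-type DN3 cells, at 8.02, 5.96 and 6.79 in replicates 1 to 3, against 5.29 to 5.80 in lymphomas. Summed signals over 7 measured genes were 202 to 225 in lymphomas, 264 to 283 in TCF-1 KO and 261 to 456 in wild-type DN3 cells. Of 6 tested NK and innate lymphoid markers Id2 (by 2.44), Il2rb, Gzma and Nfil3 rose and Nkg7 fell. Means in lymphomas and wild-type were 5.94 and 5.00 for Il2rb, 11.06 and 10.39 for Gzma, and 6.79 and 5.53 for Nfil3. Ncr1, Klrb1c and Eomes were too dim to be tested. They averaged 4.09, 3.83 and 4.79 in lymphomas and 4.07, 3.71 and 4.67 in wild-type DN3 cells. Summed signals over 9 measured genes, mostly from Gzma, were 2136 to 3192 in lymphomas, 2287 to 2798 in TCF-1 KO and 1660 to 1753 in wild-type DN3 cells. Of 8 tested early progenitor markers Kit fell by 1.03, with summed signals over 9 measured genes of 322 to 347, 357 to 457 and 387 to 413. Of 13 tested DN3 and T cell markers Gata3 and Cd5 rose and Cd3g, Rag1 and Rag2 fell, with summed signals of 9915 to 11799, 10630 to 11572 and 11471 to 11932.

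In lymphomas against TCF-1 KO DN3 cells the calls among these lists were Epcam (-1.06) and Foxn1 (-0.36) lower and Pecam1 (0.64) higher for stroma, Cd79b (-0.82) and Vpreb1 (-0.50) lower for B cells, and Id2 (1.62) and Il2rb (0.86) higher and Nkg7 (-1.18) lower for NK and innate lymphoid cells. Over all tested genes 6.62% were called there. No progenitor marker was called there by limma (4 of 8 had an unadjusted p under 0.05). Among DN3 and T cell markers Cd3e (0.59) and Gata3 (0.89) rose and Ptcra (-0.64) and Rag1 (-1.62) fell. In TCF-1 KO against wild-type DN3 cells, where Anxa5 was called, Gzma rose by 0.68 (limma adjusted p = 0.017), Cd5 rose by 0.63 (limma adjusted p = 0.038) and Kit fell by 0.69 (limma adjusted p = 0.0149). No stroma or B cell marker was called there by limma (3 and 1 had an unadjusted p under 0.05). Over all tested genes 1.99% were called there. The part of these markers in the changes of Lgals1, Anxa2, S100a10 and Anxa5 was not tested.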

How the data were processed

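Per the labels' protocols, sorted cells gave 12 RNA samples that were amplified (NuGEN Pico), from amounts of RNA that varied widely between samples, and put on Affymetrix arrays. The values deposited by the authors are log2 signals, 1 per transcript cluster and array. Per the submitters' processing notes, Partek and RMA were used, and the sources used here do not give versions or settings. Base 2 was inferred from the range of 3.00 to 13.31. Quantile normalisation, which is part of RMA, hides any shift in the total RNA of a cell, and dim signals understate differences. The number of arrays limits the precision.

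Of 35556 rows, 21789 had 1 gene symbol in the platform annotation and were used, 1621 had several and 12146 had none. Symbols were updated through the RefSeq gene table of GRCm38.p6 (21698 identifiers found). The brightest row stood for each of 19938 genes, and 4985 under the 25th percentile of the mean were left out, leaving 14953. Each pair of groups was fitted alone with limma 3.58.1 in R 4.3.3 (two-sided, Benjamini-Hochberg over all 14953 genes, called at an adjusted p under 0.05). The code was tested on simulated data.

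The members, lists and tests were chosen with earlier results of these data known. Named genes are all members, called members of the lists, and the 5 genes most like each member that spanned 1.5 log2 units; others named in the text (such as S100a4, Ahnak, Ptprc, Spn and Adgre1) were chosen after their values were seen. Batches were read from a split with a gap of 1 log2 unit or more, which 34 unnamed rows showed (the next split had 27), and sex from Xist. Deviations of same-numbered TCF-1 KO and wild-type DN3 arrays correlated at 0.51, 0.42 and 0.25, so replicate numbers may pair the DN3 arrays. Number 1 also shares a batch. The labels do not state such pairs. The main fit is unpaired, and pairing by number is given as an alternative. For lymphomas some correlations between same-numbered arrays were negative, so numbers were not taken as pairs there. Alternatives were the replicate block, batch or sex as a term, other filters, averaged rows, median-centred arrays, 1 fit to all arrays, a trended robust variance and leaving out each array.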

Additional observations from a re-analysis of the deposited data

Results flagged for a closer look

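Among the 10 genes, each read over the 6 lymphomas, 1 had a tumour far from the others by Dixon's test: Anxa5 in lymphoma 4 stood at 6.62, where the nearest of the other lymphomas stood at 8.09. The gap took up 0.692 of the whole range of that group. Chance alone marks about 1 in 20 such groups.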

How the results depend on the processing

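Over the 3 comparisons, 438 of 456 single-gene values of the tested members under an alternative kept their direction and their side of the threshold (for Lgals1 in the lymphoma comparisons, which has no test, moved by less than 1 SD). Another 5 lost a call and 4 gained one, all of Anxa5 or Anxa6. The other 9 turned direction in genes that were not called. Lgals3 in lymphomas against wild-type DN3 cells was -0.0943 with the replicate block and -0.13 to 0.17 with arrays left out. Against TCF-1 KO DN3 cells Lgals8 was 0.0459 with the replicate block and -0.12 to 0.0142 with arrays left out, and Anxa4 -0.0886 to 0.0156 with arrays left out. In TCF-1 KO against wild-type DN3 cells Lgals1 was 0.20 with sex as a term and -0.22 to 0.20 with arrays left out, and S100a10 -0.15 to 0.29. Members called in TCF-1 KO against wild-type DN3 cells were 1 in the main setting and 0 with sex as a term, the same fit as without TCF-1 KO DN3 replicate 3 (limma, 2 at an unadjusted p under 0.05) or in 1 fit to all arrays (1 at that p), and 0 to 1 with arrays left out. Over all genes, that comparison called 298, against 1380 with the replicate block, 754 with the batch and 126 with sex as a term, and 57 to 443 with arrays left out (122, 57 and 154 without wild-type replicates 1, 2 and 3, and 126 without TCF-1 KO DN3 replicate 3). The lymphomas against wild-type DN3 cells called 871, and 560 to 872 with arrays left out (564, 560 and 570 without wild-type replicates 1, 2 and 3). Against TCF-1 KO DN3 cells they called 990, 1702 with the batch as a term, and 431 to 1361 with arrays left out (457 and 431 without TCF-1 KO DN3 replicates 1 and 3). In the lymphoma comparisons the change under the replicate block rests on lymphomas 1 to 3 alone, since no DN3 array has the numbers 4 to 6. Lymphoma 4 is therefore left out of it, and lymphoma numbers do not pair samples. The block gave Anxa5 against TCF-1 KO DN3 cells a limma adjusted p of 0.00193 and changed no other call of a member. Fewer arrays and added terms change the degrees of freedom; beyond that the cause was not tested.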
